A study of Homo sapiens with 6 samples.

Results

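The genes of the proteasome were examined in Hep-G2 cells depleted of calmegin. A gene was taken as a member when the table marked it as protein-coding and its symbol began with PSMA, PSMB, PSMC, PSMD, PSME, PSMF or PSMG followed by a digit, which gave 49 of 58735 genes, 19951 of them protein-coding. Hep-G2 is an established human liver cancer line. The labels put all 6 libraries in the same batch and give one hairpin per group, with 3 libraries of cells carrying a control hairpin (genotype WT, sh-NC) and 3 of cells carrying a hairpin against CLGN (genotype CLGN knock down, sh-CLGN). Hairpins were delivered by lentivirus with puromycin selection, so an effect of the CLGN hairpin itself, a loss of calmegin and a difference between the selected cultures cannot be told apart. No label says that the libraries of a group came from separate cultures, and p-values then measure only the spread between these libraries, which may be technical.

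The proteasome is the large protease that degrades proteins tagged with ubiquitin. Its 20S core is a barrel of alpha rings, which form the gate, and beta rings, which hold the cutting sites, and a 19S particle on its end binds the ubiquitin tag, unfolds the protein and feeds it in. The core can instead carry another activator (the PSME proteins), and interferon-gamma can exchange its catalytic subunits for those of the immunoproteasome, which favours peptides for antigen presentation. Liver cells use the proteasome, among other tasks, to remove proteins that fail to fold in the endoplasmic reticulum, the compartment in which calmegin works as a chaperone.

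Levels are given as FPKM, which are reads divided by gene length and library size. Reads recovered from these values numbered 14955816 to 16244639 per library. CLGN itself stood at 24.1, 21.0 and 26.1 FPKM in sh-NC and at 9.48, 8.88 and 8.60 FPKM in sh-CLGN, a log2 fold change of -1.31 ± 0.0807 (SE, n = 3 per group, limma, adjusted p = 8.35e-06), and its groups did not overlap. All 8 hepatocyte markers examined were above 1 FPKM in every library, although 3 rose and 4 fell. The 7 fibroblast markers summed to 3.01 to 3.29 FPKM in the control libraries and 6.78 to 7.45 FPKM in sh-CLGN. All 3 that were tested rose, COL3A1 from a mean of 0.265 to 1.67 FPKM, LUM from 0.304 to 1.75 and PDGFRB from 2.12 to 2.76. PDGFRA, not tested, went from 0.420 to 0.951 FPKM, FAP was at 0 throughout, and DCN and THY1 were at no more than 1 read in any library. The 6 immune markers summed to 69.9 to 77.7 and 61.2 to 68.4 FPKM, nearly all of it LYZ, with PTPRC at no more than 4 reads. The 4 endothelial markers summed to 3.33 to 3.67 and 2.38 to 2.65 FPKM, with KDR at 0. These lists moved with the group, and their part in the results below was not tested. In bulk RNA, fewer cells of a type and less RNA per cell cannot be told apart.

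Most proteasome genes were lower in sh-CLGN, by modest amounts. The test was limma on log2(FPKM + 1) over the 13074 genes that had at least 1 FPKM in at least 3 libraries, and a gene is said to have risen or fallen at an adjusted p of at most 0.05. Of the 49 members 42 were tested, of which 32 fell, 2 rose and 8 did not pass. Of all tested genes 39.0% fell and 26.7% rose. The members' median log2 fold change was -0.35, against -0.08 over all tested genes, and their levels summed to between 2449 and 2556 FPKM in sh-NC and between 1816 and 1912 FPKM in sh-CLGN, whose mean was 74.9% of control. Part of this gap lies in the deposited library sizes, which were below the read totals in sh-NC and above them in sh-CLGN. As a share of the recovered reads, without division by length, the members made up 0.733% in sh-NC and 0.633% in sh-CLGN, which is 86.4% of control. In 33 of the 42 tested members the 3 sh-CLGN libraries all lay below the 3 sh-NC libraries and in 2 they all lay above, against 41.5% and 28.7% of all tested genes. Because 1 was added before the logarithm, fold changes of weakly expressed genes come out too small.

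The comparison with all genes depended on level and on scaling. Among the 4592 tested genes with a mean of at least 10 FPKM, 57.3% fell, with a median log2 fold change of -0.25, and among the 37 members at that level 86.5% fell, with a median of -0.38. When all libraries were brought to one distribution by quantile normalization, 17 members fell and 7 rose, which is 40.5% of the members lower against 32.5% of all tested genes, and the members' median was -0.10. The 7 were PSMA3, PSMC6, PSME2, PSME4, PSMB1, PSMC2 and PSMC5. The members' median stayed below 0 under each of the 16 alternatives.

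**Figure D1:**
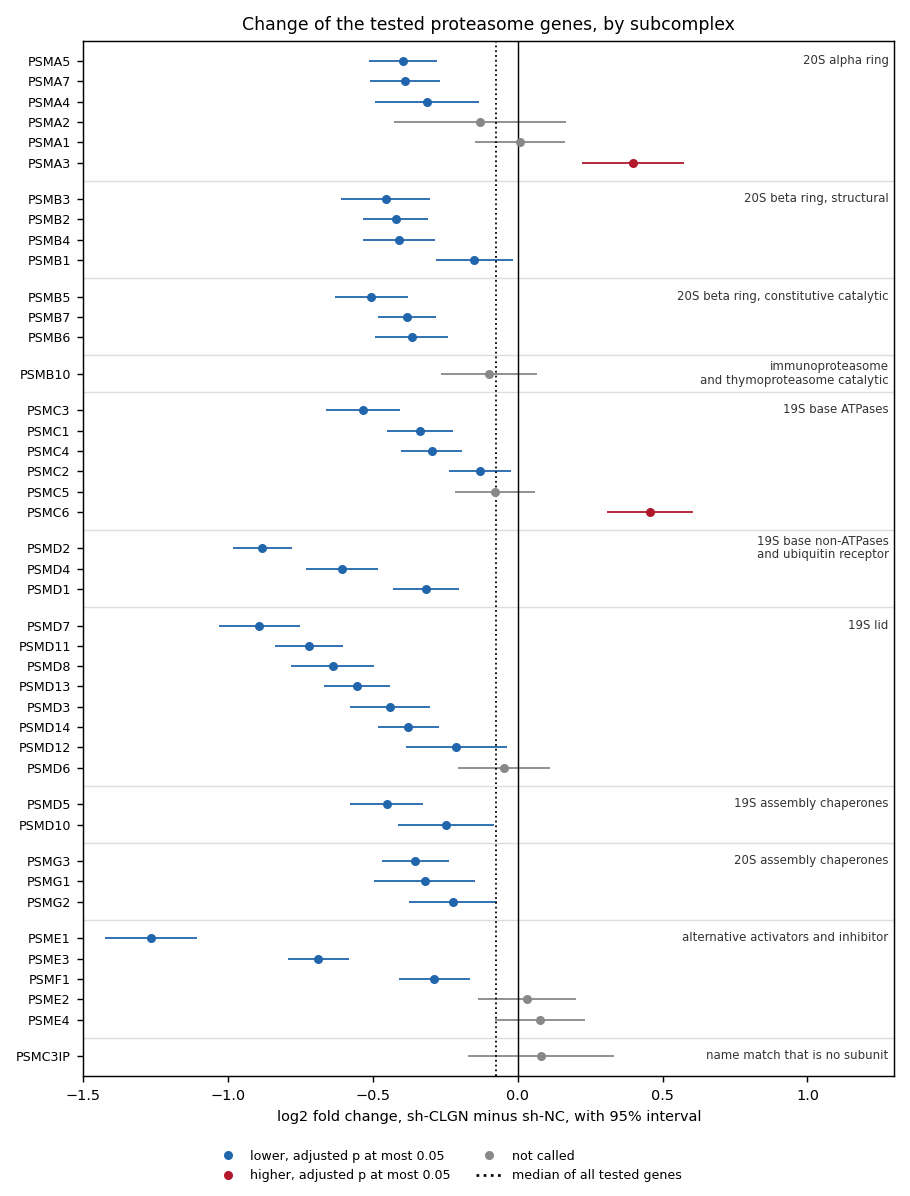
Log2 fold change (sh-CLGN minus sh-NC, on log2(FPKM + 1)) of the 42 tested proteasome genes with its 95% interval, grouped by subcomplex, where colour gives the call and the dotted line the median of all tested genes (-0.08). PSME1 lies farthest left at -1.27 and only PSMA3 and PSMC6 are called higher, while PSMB1, PSMC2, PSMD12 and PSMG2, drawn as lower, turn to the right of 0 under quantile normalization.

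The genes of the PSME family, which encode the activators that replace the 19S particle, ranged from -1.27 to 0.08 in log2 fold change, the widest range of the subcomplexes. PSME1 and PSME2 encode the alpha and beta subunits that together make the interferon-inducible activator ring, PSME3 encodes the related gamma activator of the nucleus, and PSME4 encodes a large single-chain activator. PSME1 and PSME3 fell, PSME2 and PSME4 did not pass the test, and PSMF1, which encodes an inhibitor of the core, fell.

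PSME1 (ENSG00000092010, chr14:24136158-24138967, plus strand, GRCh38) was at 60.2, 57.3 and 51.5 FPKM in sh-NC and at 22.8, 23.9 and 21.6 FPKM in sh-CLGN. Every sh-CLGN library was below every sh-NC library, and the mean fell to 40.5% of control. The log2 fold change was -1.27 ± 0.0687 (SE, limma adjusted p = 5.19e-06), and PSME1 was the 1 member that also passed an absolute log2 fold change of 1, a pair of thresholds that 3.19% of all tested genes passed downwards and 3.09% upwards. Under quantile normalization its value was -0.996, just short of that size.

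PSME2 (chr14:24143362-24147570, minus strand) lies on the same stretch of the chromosome as PSME1, with EMC9 between them, and was at 23.4, 28.3 and 25.5 FPKM in sh-NC and 27.4, 26.3 and 25.2 FPKM in sh-CLGN. The groups overlapped, with a log2 fold change of 0.03 ± 0.0732 (95% interval -0.14 to 0.20, limma adjusted p = 0.715). Quantile normalization gave 0.30 (limma adjusted p = 0.00697) and GC correction 0.21 (limma adjusted p = 0.0271), with adjusted p from 0.00697 to 0.972 over the alternatives. The level of PSME1 divided by that of PSME2 ran from 2.02 to 2.57 in the control libraries and from 0.834 to 0.911 with the CLGN hairpin. These ranges did not overlap, which in an exact permutation test, two-sided, gives p = 0.1, the smallest that 3 against 3 libraries allow. This ratio was chosen after its values were seen.

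PSME3 stood at 58.2, 62.4 and 60.4 FPKM in sh-NC and 36.7, 36.9 and 37.6 FPKM in sh-CLGN, a log2 fold change of -0.69 ± 0.0455 (SE, limma adjusted p = 1.11e-05), with no overlap. PSME4 was at 23.5, 22.6 and 26.9 FPKM in sh-NC and 25.5, 25.7 and 25.8 FPKM in sh-CLGN. Its groups overlapped and its log2 fold change was 0.08 (95% interval -0.08 to 0.23), with 0.33 under quantile normalization (limma adjusted p = 0.00511, and 0.00511 to 0.916 over the alternatives). PSMF1 was at 43.2, 44.5 and 40.7 FPKM in sh-NC and 34.0, 34.2 and 36.4 FPKM in sh-CLGN, at -0.29 ± 0.0532 (SE, limma adjusted p = 0.00183), but at -0.01 under quantile normalization.

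The start regions of PSME1 and PSME2 are shown because the pair are both known interferon-gamma targets and yet differed here, together with those of 2 immunoproteasome genes. The core of the interferon-stimulated response element was searched as GAAANNGAA on both strands of the RefSeq promoters (GRCh38.p14, 250 bases before to 50 after the start), which matched 43 of the 49 members. It was present in 8 of the 43 members (18.6%) and in 9.22% of 14896 protein-coding genes. The form GAAAGCGAA, picked after it was seen in PSME1, was present in 5 of the 43 (11.6%) and in 0.436% of genes. The windows run from 50 bases before the start to 50 after it, 5′ to 3′ on the gene's strand, and capitals mark this form or its complement TTCGCTTTC. They are PSME1 at chr14:24136144-24136243, PSME2 at chr14:24146561-24146660, PSMB8 at chr6:32843998-32844097 and PSMB10 at chr16:67936801-67936900.
PSME1: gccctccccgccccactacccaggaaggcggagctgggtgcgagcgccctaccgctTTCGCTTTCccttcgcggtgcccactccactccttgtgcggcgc
PSME2: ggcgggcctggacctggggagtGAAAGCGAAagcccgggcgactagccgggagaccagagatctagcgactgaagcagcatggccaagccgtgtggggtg
PSMB8: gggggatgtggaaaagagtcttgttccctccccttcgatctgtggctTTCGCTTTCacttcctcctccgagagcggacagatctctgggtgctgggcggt
PSMB10: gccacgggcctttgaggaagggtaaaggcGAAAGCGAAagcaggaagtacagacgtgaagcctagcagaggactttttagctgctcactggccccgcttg

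Only windows with a match were printed, so that all 4 hold the same 9 bases was set by this choice. The matches lie within 30 bases of the start, and the genes did not share a change. PSMB9, the other immunoproteasome gene with a low level, had a promoter in the search and no match to GAAANNGAA. PSME1 fell, PSME2 did not pass the test, PSMB10 was at -0.10 and PSMB8 was below the expression filter. The fifth holder, PSMG4, was also below the filter. A match in a window is a description of the letters and not a site of binding.

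**Figure D2:**
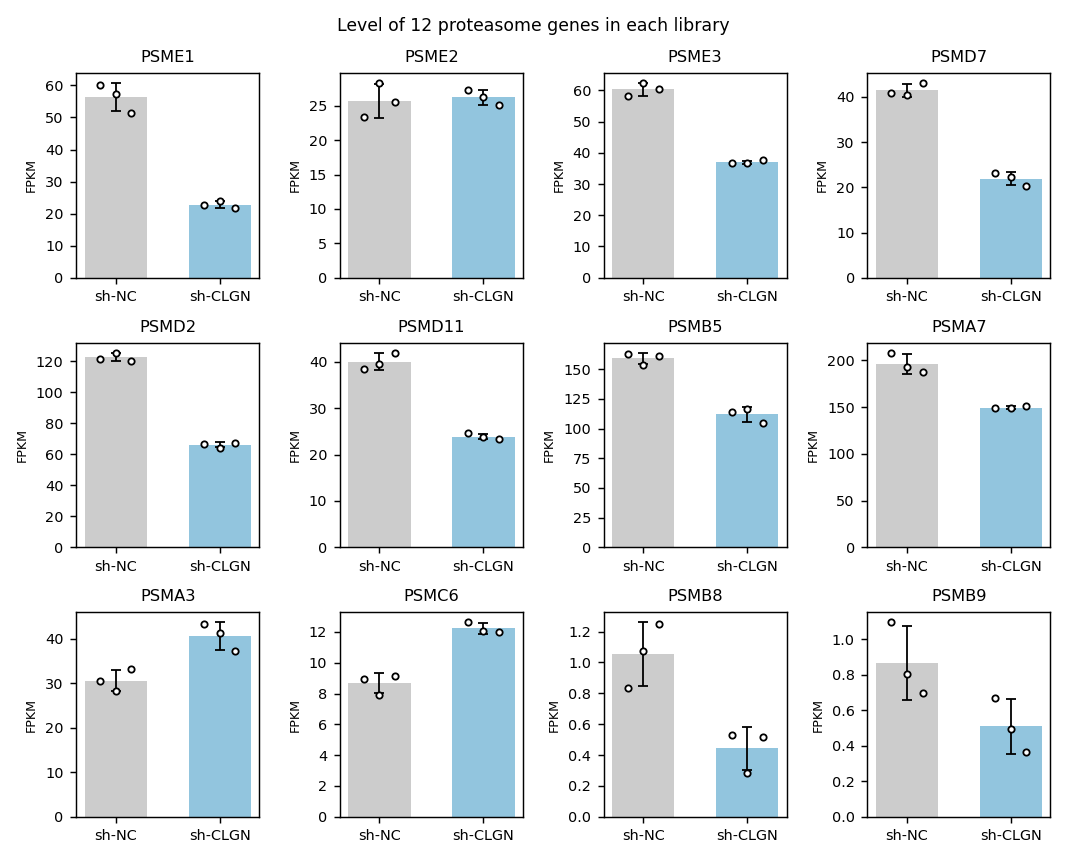
FPKM of 12 proteasome genes in each library (open points), with bars for the mean and error bars for the SD of 3 libraries per group. Every sh-CLGN library of PSME1, PSME3, PSMD7, PSMD2, PSMD11, PSMB5, PSMA7, PSMB8 and PSMB9 is below every sh-NC library, PSMA3 and PSMC6 are above, and PSME2 overlaps.

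The genes of the catalytic subunits of the immunoproteasome stood low in both groups. PSMB8, which replaces PSMB5, was at 0.837, 1.07 and 1.25 FPKM in sh-NC, from 35, 47 and 58 reads, and at 0.531, 0.285 and 0.517 FPKM in sh-CLGN, from 27, 14 and 25 reads. PSMB9, which replaces PSMB6, was at 1.10, 0.803 and 0.694 FPKM in sh-NC, from 47, 36 and 33 reads, and at 0.672, 0.496 and 0.363 FPKM in sh-CLGN, from 35, 25 and 18 reads. In both the sh-CLGN libraries lay below the sh-NC libraries, and neither was tested because of its low level.

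Without the filter PSMB8 had a log2 fold change of -0.51 (limma adjusted p = 0.0294) and PSMB9 of -0.30 (limma adjusted p = 0.152). PSMB10, which replaces PSMB7, was tested and was at 2.44, 2.37 and 2.37 FPKM in sh-NC and 2.23, 2.27 and 2.01 FPKM in sh-CLGN, at -0.10 ± 0.0710 (SE, limma adjusted p = 0.249). Its groups did not overlap, but its value turned positive with GC correction (0.15) and with scaling by read totals (0.04). Under quantile normalization PSMB10 was at -0.19 and just passed as lower (limma adjusted p = 0.0499). PSMB11, the catalytic subunit of the thymus, was covered by 0, 0 and 2 reads in the control libraries and by 3, 3 and 0 reads in the sh-CLGN libraries, at or under the floor of 3 reads.

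Set against the subunit it replaces, per length, PSMB8 amounted to 0.663% ± 0.135 of PSMB5 in the control libraries (SD, n = 3) and to 0.401% ± 0.135 with the CLGN hairpin. PSMB9 was 0.574% ± 0.107 of PSMB6 in sh-NC and 0.439% ± 0.121 in sh-CLGN. PSMB10 was 1.42% ± 0.0152 of PSMB7 in sh-NC and 1.68% ± 0.0960 in sh-CLGN. No immunoproteasome subunit reached 2% of its constitutive counterpart in the mean of either group. The length used is that of all annotated exons together, 2997 bases for PSMB8 against 1124 in its principal transcript. It was 3072 against 782 for PSMB9, 1765 against 1294 for PSMB5 and 1448 against 852 for PSMB6. The part of annotated length in these ratios was not tested. PSMB10 shares 45.3% of its principal transcript with another gene, so its level is uncertain.

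The constitutive catalytic subunits were among the most abundant members, and all 3 fell. PSMB5, which carries the chymotrypsin-like site, was at 163, 154 and 161 FPKM in sh-NC and at 114, 116 and 105 FPKM in sh-CLGN, with a log2 fold change of -0.51 ± 0.0542 (SE, limma adjusted p = 0.000107). PSMB6, with the caspase-like site, was at 159, 144 and 146 FPKM in sh-NC and at 120, 114 and 113 FPKM in sh-CLGN, at -0.37 ± 0.0547 (SE, limma adjusted p = 0.000596). PSMB7, with the trypsin-like site, was at 174, 167 and 165 FPKM in sh-NC and at 131, 129 and 127 FPKM in sh-CLGN, at -0.38 ± 0.0435 (SE, limma adjusted p = 0.000145). The groups did not overlap for any of the 3. Under quantile normalization PSMB5 was at -0.18 and still fell, while PSMB6 (-0.04) and PSMB7 (-0.05) no longer passed, with limma adjusted p up to 0.496 and 0.285 over the alternatives.

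All 4 structural beta subunits fell as well, from -0.46 for PSMB3 to -0.15 for PSMB1. That makes 100% of the 7 constitutive beta genes. Of all tested genes 39.0% fell, and of those with a mean of at least 10 FPKM 57.3%. PSMB3 was at 176, 157 and 162 FPKM in sh-NC and at 127, 121 and 112 FPKM in sh-CLGN (SE of the log2 fold change 0.0661, limma adjusted p = 0.000518). PSMB2 was at -0.42 and PSMB4 at -0.41. PSMB1 was close to the threshold (limma adjusted p = 0.0472) and turned to 0.14 under quantile normalization and 0.04 with scaling by read totals.

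The alpha ring, whose subunits shape the gate of the core, was mixed. Of its 8 genes 6 were tested, of which PSMA5, PSMA7 and PSMA4 fell, PSMA3 rose and PSMA1 and PSMA2 did not pass. These are 50% lower and 16.7% higher, beside 39.0% and 26.7% of all tested genes. PSMA5 was at 18.9, 19.7 and 19.7 FPKM in sh-NC and 15.2, 14.2 and 14.3 FPKM in sh-CLGN, at -0.40 ± 0.0502 (SE, limma adjusted p = 0.000257). PSMA7 had the highest level of any member, at 209, 193 and 187 FPKM in sh-NC and 149, 149 and 151 FPKM in sh-CLGN, at -0.39. PSMA4 was at -0.32. Under quantile normalization PSMA7 (-0.08) and PSMA4 (-0.04) did not pass, with limma adjusted p up to 0.101 and 0.693 over the alternatives, and PSMA4 also did not pass with TPM or read-total scaling.

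PSMA3 was at 30.4, 28.3 and 33.1 FPKM in sh-NC and 43.3, 41.4 and 37.2 FPKM in sh-CLGN. All sh-CLGN libraries were above all sh-NC libraries, and the log2 fold change came to 0.40 ± 0.0763 (SE, limma adjusted p = 0.00223). It was 0.18 with GC correction and 0.67 under quantile normalization, and it passed under each of the 16 alternatives.

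PSMA1 (0.01, 95% interval -0.15 to 0.16) and PSMA2 (-0.13, 95% interval -0.43 to 0.17) had groups that overlapped. PSMA6 was at 0.318 to 0.495 FPKM in sh-NC and 0.375 to 0.661 FPKM in sh-CLGN, below the filter. PSMA8, the alpha subunit of the testis, had 0 reads in all 6 libraries.

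PSMA1, PSMA2 and PSMA6, which are obligatory subunits of every core, stood low at 7.95, 1.27 and 0.377 FPKM in sh-NC and share exons with another annotated gene. In GENCODE 29 the principal transcript of PSMA6 shared 81.0% of its bases with exons of the overlapping gene AL121594.1, which had 0 to 4 reads per library, that of PSMA2 54.1% and that of PSMA1 53.2%. Among the 10986 tested protein-coding genes 2.59% shared over 50%, and the median was 0%. The other members over 40% were PSMC1 (82.1%, with NRDE2 on the other strand, at 11.7 FPKM), PSMC3IP (54.4%, with MLX), PSMD7 (50.4%, at 41.4 FPKM), PSMB10 (45.3%) and PSMD9 (43.8%). How reads in shared exons were counted is not given in the sources used here, so the levels of these 8 genes are uncertain, and the part of exon sharing in their values was not tested. Of the 6 of them that were tested 2 fell, PSMC1 and PSMD7, and of the 36 other tested members 30 fell. Sharing on the gene's own strand was 81.0% for PSMA6, 53.2% for PSMA1, 52.5% for PSMA2, 45.3% for PSMB10 and 43.8% for PSMD9. It was 0% for PSMC1, PSMD7 and PSMC3IP, so these 8 genes are not alike in this respect.

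**Figure D3:**
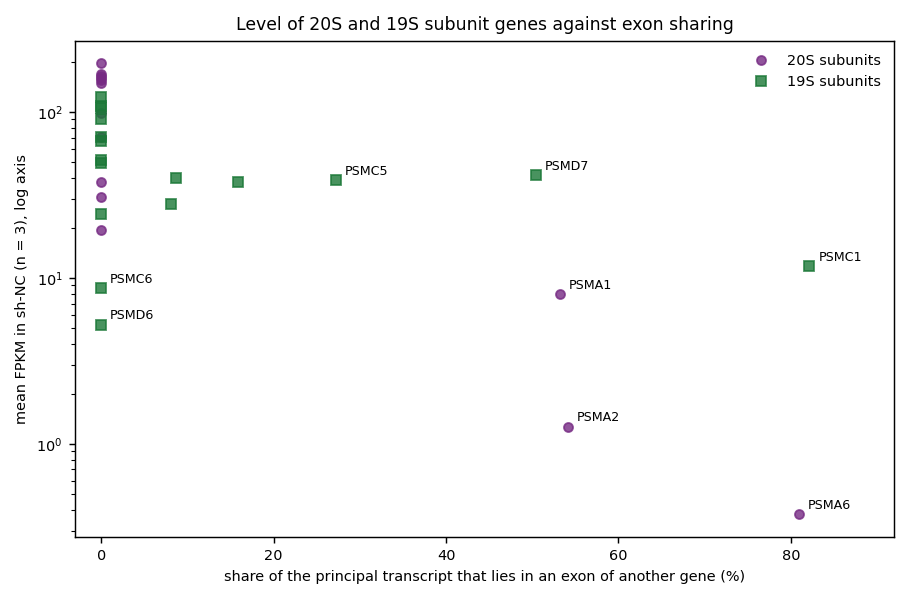
Mean FPKM in sh-NC (n = 3, log axis) of the 20S and 19S subunit genes against the percentage of the principal transcript that lies in exons of another gene. With over 50% shared, PSMA6, PSMA2 and PSMA1, which share mostly or only on their own strand, lie at 0.377, 1.27 and 7.95 FPKM. PSMC1 at 11.7 and PSMD7 at 41.4 FPKM share only with the other strand. The 26 subunit genes with at most 40% shared run from 5.20 to 196 FPKM around a median of 68.8.

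Members with little sharing also differed in level. PSMD6, at 5.20 FPKM in sh-NC, and PSMC6, at 8.67, were the lowest of these 26 genes. FPKM divides by the length of all annotated exons together, which for PSMD6 was 9123 bases against 1430 in its principal transcript and for PSMC6 7482 against 2188. PSME3, with 5152 bases against 998, stood at 60.3 FPKM. The part of annotated length in these levels was not tested.

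The 19S particle, which recognises and unfolds the substrate, fell in most of its genes. Of its 17 members in the base and lid 14 fell, PSMC6 rose, and PSMC5 and PSMD6 did not pass. That is 82.4% lower, beside 39.0% of all tested genes and 57.3% of those with a mean of at least 10 FPKM. The median log2 fold change was -0.21 over the 6 ATPases, which unfold the substrate, -0.61 over the 3 other base genes and -0.50 over the 8 lid genes.

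PSMD2, the scaffold of the base that docks ubiquitin carriers, was at 122, 126 and 120 FPKM in sh-NC and 66.8, 64.2 and 67.1 FPKM in sh-CLGN. The groups were far apart beside their spread, and the mean fell to 53.9% of control, a log2 fold change of -0.88 ± 0.0441 (SE, limma adjusted p = 3.72e-06). PSMD4, a ubiquitin receptor, was at -0.61 and PSMD1, the other large scaffold, at -0.32.

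PSMD7, the lid partner of the deubiquitinase PSMD14, was at 40.8, 40.5 and 43.1 FPKM in sh-NC and 23.2, 22.2 and 20.3 FPKM in sh-CLGN. Its mean fell to 52.8% of control, a log2 fold change of -0.89 ± 0.0600 (SE, limma adjusted p = 1.19e-05). The gene that overlaps it on the other strand, AC009120.2, was covered by 26 to 34 control reads and 48 to 56 sh-CLGN reads, against 1559 to 1827 and 897 to 1077 for PSMD7.

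The other lid genes ran from PSMD11 to PSMD6. PSMD11, a lid scaffold, was at 38.6, 39.6 and 42.0 FPKM in sh-NC and 24.6, 23.8 and 23.3 FPKM in sh-CLGN, at -0.72 ± 0.0508 (SE, limma adjusted p = 1.45e-05). PSMD8 was at -0.64, PSMD13 at -0.56, PSMD3 at -0.44, PSMD14 at -0.38 and PSMD12 at -0.21. PSMD6 was at -0.05 (95% interval -0.21 to 0.11). PSMD12 turned to 0.03 under quantile normalization, and PSMD6 turned to 0.07 with TPM scaling and 0.12 with scaling by read totals. With GC correction PSMD6 was at -0.21 and fell (limma adjusted p = 0.00837).

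Among the ATPases PSMC3 fell most, from 96.2, 89.6 and 86.3 FPKM in sh-NC to 64.6, 60.4 and 61.8 FPKM in sh-CLGN (-0.54 ± 0.0551, SE, limma adjusted p = 8.62e-05). PSMC1 was at -0.34 and kept its call under every alternative. PSMC4 was at -0.30 and did not pass under quantile normalization (-0.01), read-total scaling or GC correction (-0.08), with limma adjusted p up to 0.846 over the alternatives. PSMC2, at -0.13 (limma adjusted p = 0.0351), turned to 0.16 under quantile normalization and 0.06 with scaling by read totals. PSMC5, at -0.08, did not pass and turned positive under quantile normalization (0.21), TPM scaling, scaling by read totals and GC correction.

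PSMC6, the remaining ATPase, was at 8.97, 7.92 and 9.11 FPKM in sh-NC and 12.6, 12.1 and 11.98 FPKM in sh-CLGN. All sh-CLGN libraries were above all sh-NC libraries, the log2 fold change was 0.46 ± 0.0638 (SE) at a limma adjusted p of 0.000431, and the rise passed under each of the 16 alternatives, at 0.30 to 0.63.

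Of the 7 chaperones that assemble the particles 5 were tested and all 5 fell, of which 1, PSMD5, kept its call under every alternative. Of all tested genes 39.0% fell, and of those with a mean of at least 10 FPKM 57.3%. PSMD5, which holds base ATPases during assembly, was at 22.4, 22.4 and 24.4 FPKM in sh-NC and 16.7, 16.0 and 17.0 FPKM in sh-CLGN, at -0.45 ± 0.0538 (SE, limma adjusted p = 0.000183), and PSMD10 (gankyrin) was at -0.25. PSMG3, of the chaperones of the alpha ring, was at 19.5, 19.5 and 19.2 FPKM in sh-NC and 15.7, 14.5 and 14.6 FPKM in sh-CLGN, at -0.35 (95% interval -0.47 to -0.24, limma adjusted p = 0.00045). PSMG1 was at -0.32 and PSMG2 at -0.22. PSMD10 and PSMG1 did not pass with TPM, quantile or read-total scaling, PSMG3 did not pass with GC correction (-0.11, limma adjusted p = 0.11, and up to 0.17 over the alternatives), and PSMG2 turned to 0.04 under quantile normalization. PSMD9 (93 to 113 reads in sh-NC, 117 to 155 in sh-CLGN) and PSMG4 (121 to 164 and 124 to 173 reads) were below the filter, and their groups overlapped.

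PSMC3IP meets the naming rule without being a subunit. It encodes a partner of the recombinases of meiosis that was named for binding PSMC3, and it was at 0.08 (95% interval -0.17 to 0.33). Without it 32 of 41 tested members fell.

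The base composition of the members moved with their change. GC content was taken from the longest annotated transcript of each gene. It ran from 32.0% to 60.1% in the 42 tested members, with a median of 48.0%, and 48.1% over all tested genes. Spearman's correlation of the log2 fold change with GC content was -0.41 across the 42 members and -0.32 across the 13068 tested genes with a value, as a description across genes that share libraries. The genes that rose were of low GC content, 36.7% for PSMA3 and 38.8% for PSMC6, but so was PSMD14 at 32.0%, which fell. After the trend with GC content was removed in each library 30 members fell and 3 rose, against 34.2% and 32.8% of all genes, PSME1 was at -1.07 and PSMD14 at -0.72.

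**Figure D4:**
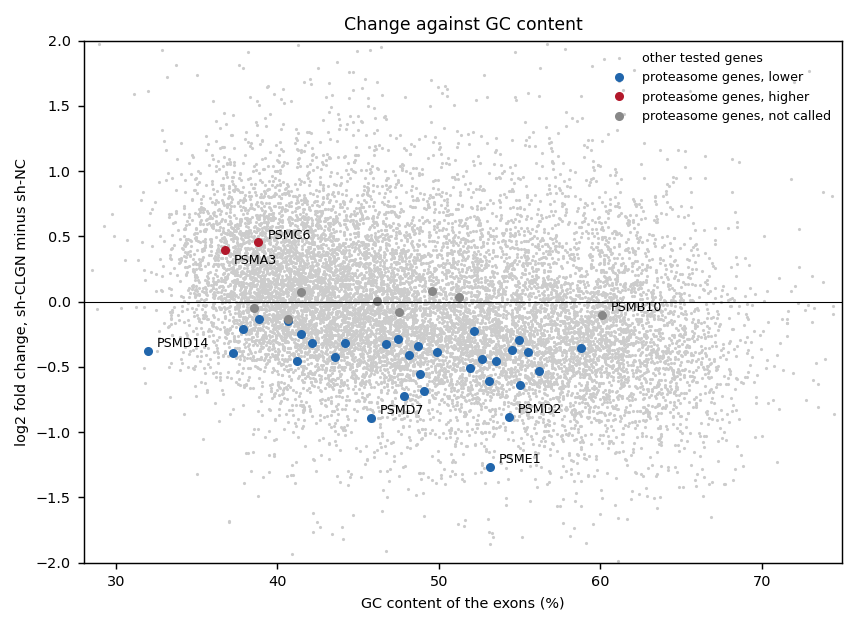
Log2 fold change (sh-CLGN minus sh-NC) against GC content (%) for tested genes (grey) and the 42 tested proteasome genes (coloured by call), with 57 of 13068 genes outside the axes. GC content is that of the longest transcript of each gene, which the axis label calls the exons. PSMA3 and PSMC6 sit at low GC content above 0, and PSMD14, at the lowest GC content of the members, sits below 0.

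Sites of the CLGN hairpin were looked up in the 3′ UTRs of the members, since a hairpin can act on transcripts that pair with the first bases of its guide strand. With the guide taken as the complement of the stated CLGN target, the 7 bases that pair with guide positions 3 to 9 (ATACCAC) were present in a 3′ UTR of 4 of the 42 tested members (9.52%) and in 9.69% of 10908 tested genes. The sites are printed because PSME1 and PSMD7, the members with the largest falls, are among the 4. The 7 bases stand in capitals with up to 10 bases on either side, 5′ to 3′ on the transcript, at chr14:24138942-24138964 for PSME1, chr16:74306172-74306198 for PSMD7, chr1:35600391-35600417 for PSMB2 and chr2:53887410-53887436 for PSME4 (GRCh38, GENCODE 29).
PSME1: aaatatagttATACCACtgccca
PSMD7: tctgttgataATACCACaccatgttct
PSMB2: catcttctatATACCACagtatgtttg
PSME4: tctttgccaaATACCACaccaaccata

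The PSME1 site lies 308 bases after the stop codon of a 320-base UTR and is in all 5 annotated 3′ UTRs of the gene, and the PSMD7 site lies 449 bases into a 555-base UTR. The PSMD7 site is in 1 of its 4 annotated 3′ UTRs. The PSMB2 and PSME4 sites are each in 1 of 2 annotated UTRs, 2860 and 2695 bases after the stop codon. The 4 log2 fold changes were -1.27, -0.89, -0.42 for PSMB2 and 0.08 for PSME4, with a median of -0.66 against -0.33 for the members without the site. Over all tested genes the medians were -0.17 with the site and -0.12 without it. The 7 bases that pair with positions 2 to 8 (TACCACA) were present in 8 members (19.05%) and in 13.1% of genes, and the members' median was -0.26 with them and -0.37 without. Those that pair with positions 1 to 7 (ACCACAA) were present in 5 members (11.9%) and in 14.2% of genes, with medians of -0.32 and -0.37. Any of the 3 was present in 23.8% of members and 25.8% of genes. No annotated 3′ UTR of PSME1 held TACCACA or ACCACAA. PSMD7, PSMB2 and PSME4 held TACCACA in at least 1 UTR each, and none of them held ACCACAA. Whether the hairpin acted at any of these sites was not tested.

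The genes that act with the proteasome were counted in the same way. Of 39 other genes of the pathway 37 were tested, of which 22 fell and 5 rose, with a median log2 fold change of -0.19. These are 59.5% lower and 13.5% higher, beside 39.0% and 26.7% of all tested genes. Among tested genes with a mean of at least 10 FPKM the shares were 57.3% and 17.2%, with a median of -0.25, so the count lay near that of well-expressed genes. Under quantile normalization 10 fell and 12 rose, where 32.5% of all tested genes fell and 30.2% rose.

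The transcription factor NRF1, encoded by NFE2L1, is known for raising proteasome genes when proteasome activity is short. NFE2L1 was at 95.5, 93.6 and 89.3 FPKM in sh-NC and 46.5, 48.5 and 52.3 FPKM in sh-CLGN, with no overlap and a log2 fold change of -0.90 ± 0.0564 (SE, limma adjusted p = 8.60e-06). MAFF, one of the small MAF proteins that pair with it, was at 15.3, 15.2 and 13.7 FPKM in sh-NC and 4.45, 4.26 and 4.86 FPKM in sh-CLGN, at -1.51 ± 0.0671 (SE, limma adjusted p = 2.50e-06). MAFG (-0.37), MAFK (-0.39) and the related factor NFE2L2 (-0.34) also fell, DDI2, the protease that activates NRF1, rose (0.25) and NGLY1 did not pass. These 5 were named after their values were seen.

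The core of the antioxidant response element, which NRF1 binds with its partners, was searched as TGACNNNGC on both strands. It was present in 15 of the 43 members with a promoter (34.9%) and in 18.0% of all genes. The median log2 fold change of the 13 tested members with it was -0.32, and of those without it -0.38.

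Of the subunits and maturation factors that the naming rule leaves out, POMP, the chaperone that completes the core and is consumed by it, rose. It was at 54.0, 52.1 and 57.4 FPKM in sh-NC and 76.2, 68.6 and 65.0 FPKM in sh-CLGN, at 0.35 ± 0.0683 (SE, limma adjusted p = 0.00236), with no overlap. With GC correction it was at 0.08 and did not pass (limma adjusted p up to 0.216 over the alternatives). ADRM1, a ubiquitin receptor of the base, fell (-0.52), but was at -0.21 and did not pass under quantile normalization (limma adjusted p = 0.0978, the highest over the alternatives). PAAF1 was at 0.24, a call that was lost in 6 of the 16 alternatives (limma adjusted p up to 0.115), and SEM1 did not pass (0.17). These 3 were also named after their values were seen.

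Of the 9 deubiquitinases, ligases and adaptors bound to the proteasome 7 fell and 1 rose, of the 8 ubiquitin shuttles and p97 genes 5 fell and none rose, and of the 6 genes for ubiquitin and its activating enzymes 2 fell and none rose. These are 77.8%, 62.5% and 33.3% lower, beside 39.0% of all tested genes and 57.3% of those with a mean of at least 10 FPKM. Of 5 genes tied to interferon-gamma 3 were tested, of which 2 fell and 1 rose, beside 39.0% and 26.7% of all tested genes. Among them IRF1 (-0.52), named after its values were seen, fell and kept its call under every alternative. TAP2 also fell (-0.27, limma adjusted p = 0.0316), but lost its call in 10 of the 16 alternatives. TAP1, at 67 to 75 control reads and 61 to 78 sh-CLGN reads, and NLRC5, at 4 to 5 and 18 to 29 reads, were below the filter.

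The calls for members were compared across the 16 alternatives. In 15 members the fall passed under every one of them, among them PSME1, PSME3, PSMD2, PSMD7, PSMD11, PSMD4, PSMC3 and PSMB5, and in 17 it was lost under at least 1, which for 16 of the 32 that fell includes quantile normalization. In 29 the log2 fold change stayed below 0 throughout. Scaling to TPM moved the median of all tested genes up by 0.11 and scaling by read totals by 0.16 on the log2 scale, and the members stayed below the moved median, by 0.27 and 0.25. With scaling by read totals 22 members fell and 4 rose, against 26.2% and 37.9% of all tested genes.

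**Figure D5:**
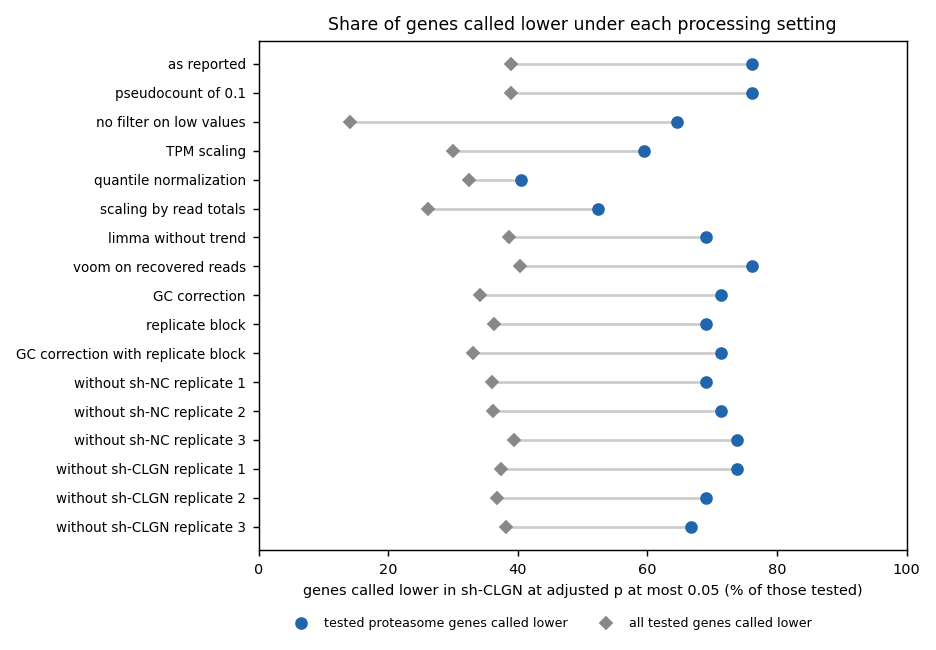
Percentage of tested genes called lower in sh-CLGN (limma, adjusted p at most 0.05) under each processing setting, for proteasome genes (circles) and all tested genes (diamonds). The members' percentage is above that of all genes in each row, from 40.5% against 32.5% under quantile normalization to 76.2% against 39.0% as reported.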

How the data were processed

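Messenger RNA of 6 Hep-G2 libraries (NEBNext Ultra kit, per the labels) was sequenced, and the authors deposited a table of FPKM values and gene lengths. The submitters' processing notes name HISAT2 2.0.5, featureCounts and GRCh38, while strandedness and the handling of reads on several genes are not given in the sources used here. Groups came from the labels, and columns starting with KD were read as sh-CLGN. FPKM times length fell on whole reads for 100% of values within 0.01 of a read, so the deposited FPKM gave back the reads. The library sizes behind them ran from 0.933 to 0.953 times the read totals for sh-NC libraries and from 1.07 to 1.08 times for sh-CLGN. A floor of 3 reads covers counting error only.

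The test was limma 3.58.1 (R 4.3.3) on log2(FPKM + 1), moderated with eBayes along the mean level, with 3 libraries per group, no covariate, and Benjamini-Hochberg adjustment over all 13074 tested genes. It was tested on simulated data. No set test was run. Positions, 3′ UTRs and exon sharing came from GENCODE 29, whose positions equalled those of all 58735 genes, and promoters from RefSeq. Python 3.11.15 with pandas 2.3.3 and matplotlib 3.10.9 did the rest.

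Full values are given for members past both thresholds, for the member of each subcomplex with the largest change among those called in each direction, for PSMB5 to PSMB10, PSME1 to PSME4 and PSMF1, for members near 0 reads, and for the 2 largest changes per direction among other pathway genes with NFE2L1 and POMP. A gene that meets this rule is not reported here. The members, lists and rules were chosen with earlier results of these data known. Alternatives were a pseudocount of 0.1, no filter, TPM, quantile and read-total scaling, no trend, voom on recovered reads, GC correction (lowess span 0.3), the replicate number as a block with and without GC correction, and leaving out each library.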

Additional observations from a re-analysis of the deposited data

Results flagged for a closer look

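Among 37 pseudogenes and antisense RNAs whose names start like those of the members, which are not members, 2 stood higher in every sh-CLGN library than in every sh-NC library. PSMA3-AS1, on the strand opposite to PSMA3 with a span that overlaps the gene's 3′ part but no shared exon (chr14:58265365-58298134), was at 3.38, 2.92 and 3.45 FPKM in sh-NC and at 5.40, 4.81 and 5.27 FPKM in sh-CLGN, a mean of 5.16 FPKM (log2 fold change 0.54 ± 0.0750, SE, limma adjusted p = 0.000426). PSMA3 itself rose. PSMD6-AS2, opposite to PSMD6, was covered by 2, 0 and 2 control reads and by 11, 9 and 13 reads with the CLGN hairpin, a mean of 0.272 FPKM, too low to be tested. Its exons overlap 3.86% of the exon bases of PSMD6.

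Of the other names, PSMG3-AS1 fell (-0.24 ± 0.0863, SE, limma adjusted p = 0.0360). The pseudogene PSMC1P1 was at 2.80 FPKM in sh-NC and 2.28 in sh-CLGN, with groups that overlapped, and no other pseudogene had more than 57 reads over the 6 libraries together.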

How the results depend on the processing

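Under quantile normalization 17 members fell and 7 rose, 0 passed both thresholds, and of the other pathway genes 12 rose and 10 fell. With scaling by read totals 4 members rose, and 11 other pathway genes rose and 9 fell. With TPM scaling 9 other pathway genes rose and 14 fell. With GC correction and the replicate block together 4 members rose. With the replicate block alone 29 members fell and 3 other pathway genes rose. The numbers did not pair the libraries (correlations of same-numbered deviations -0.02, -0.05 and -0.15). With each library left out in turn, 28 to 31 members fell and 2 to 3 rose, and 3 to 6 other pathway genes rose, with 3 without sh-CLGN replicate 1 or replicate 2.

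Values changed sign as follows. Under quantile normalization PSMB1 was at 0.14, PSMC2 at 0.16, PSMC5 at 0.21, PSMD12 at 0.0309 and PSMG2 at 0.0415. With scaling by read totals PSMB1 was at 0.0422, PSMB10 at 0.0365, PSMC2 at 0.0614, PSMC5 at 0.11 and PSMD6 at 0.12. With TPM scaling PSMC5 was at 0.0463 and PSMD6 at 0.067. With GC correction, with and without the block, PSMB10 was at 0.15, PSMC5 at 0.0219 and SEM1 at -0.18. With one library left out PSMA1 lay between -0.0213 and 0.0606 and PSME2 between -0.0324 and 0.10. The cause was not tested. CLGN fell under every alternative, between -1.44 and -1.12. Depth limits the members under 100 reads in every library, PSMB8, PSMB9, PSMB10, PSMB11, PSMA6 and PSMA8.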
